A study of Homo sapiens with 12 samples.

Results

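DYNC1LI1 was targeted by siRNA in HCC827, an established human non-small cell lung cancer line that carries an activating EGFR mutation. The HCC827 libraries were 3 of the 12 RNA sequencing libraries of the series: siDYN-1 and siDYN-2, both labelled 48 h, and siCON, a control siRNA with no time in its label. There was 1 library per siRNA, so siDYN-1 and siDYN-2 stood in for replicates of the knockdown and no culture was repeated, as far as the labels say. No sequence of the siRNAs was given here. Changes were compared with those in NCI-H1975, a second EGFR-mutant lung cancer line that received the same treatments, also with 1 library each. The cells of all 6 siRNA libraries were transfected, and none was left without siRNA.

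Of 17442 genes with complete values, 11282 had at least 1 FPKM (fragments per kilobase of transcript, corrected for the size of the library) in at least 1 of the HCC827 libraries and were kept. The other 6160 were below that level in all 3. The filter passed 491 genes through the siDYN libraries alone and 132 through siCON alone. Just inside it were ARSG, ZNF704 and CASTOR1, each with a highest value of 1.0 FPKM, and just outside it ABCA1, ZNF461 and SOX9, each with a highest value of 0.99 FPKM. Changes are differences of log2(FPKM + 1), siDYN minus siCON, which understate the changes of low genes. On this scale a change of 1 is a doubling of FPKM + 1. A gene is called higher or lower here when its change was at least 0.5 in the same direction with both siRNAs; this is a size rule, not a test, because both changes share the siCON library.

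Cytoplasmic dynein is the motor that carries cargo along microtubules towards the cell centre. Its heavy chains hold the motor domains, and the intermediate, light intermediate and light chains join them to cargo. The light intermediate chains bind adaptor proteins that link dynein to its partner complex dynactin and to endosomes, lysosomes, Golgi membranes and mitotic structures. Dynein also moves autophagosomes, the vesicles that enclose material for digestion, towards lysosomes, and the title of the series names autophagy.

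DYNC1LI1 (light intermediate chain 1, also LIC1) lies on the minus strand at chr3:32525971-32570874 (GRCh38, GENCODE 29) and has 13 exons in its longest transcript. Its level was 2.42 FPKM with siDYN-1 and 1.22 FPKM with siDYN-2, against 16.28 FPKM with siCON. The siDYN libraries thus held 14.9% and 7.49% of the siCON level, and both lay far below it. The fitted change was -2.65 ± 0.38 (SE, 2 siDYN libraries and 1 siCON library; limma, Benjamini-Hochberg adjusted p = 0.651). With the siRNA number as a term in the model the adjusted p was 8.52e-04 (limma). Among the tested genes with negative changes it ranked behind U2AF1 by its smaller change over the siRNAs.

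The other dynein subunits moved little. Of 12 subunit genes 10 were tested, and 0 were higher and 2, DYNC1LI1 itself and DYNC1LI2, were lower with both siRNAs. Shares over all tested genes were 4.57% higher and 2.93% lower. The untested DYNC1I1, a neuronal intermediate chain, and DYNLRB2 stayed at or below 0.29 FPKM. DYNC1LI2, the paralogous light intermediate chain, was the second of the lower genes, with 24.35 FPKM and 23.61 FPKM in the siDYN libraries and 36.21 FPKM with siCON. DYNC1H1, the heavy chain, had 10.39 FPKM and 11.1 FPKM with siDYN and 14.33 FPKM with siCON (changes -0.43 and -0.34), short of the size rule. DYNLL2, a light chain, had changes of 0.19 and 0.49, and DYNLT2B had changes of -0.48 and 0.64, in opposite directions with the siRNAs. Among 12 dynactin subunits 0 were higher and 1, DCTN4, was lower, beside the same shares over all tested genes. DCTN4 had 4.81 FPKM and 6.31 FPKM with siDYN against 9.79 FPKM with siCON. With the trends on transcript length and GC content removed, DYNC1LI2 (-0.41 and -0.45) and DCTN4 (-0.74 and -0.40) no longer met the size rule. Among 18 tested adaptors and regulators 1 was higher and 0 were lower, again beside 4.57% and 2.93%. The higher gene was BICD2, an adaptor that joins dynein to RAB6 vesicles, with 5.73 FPKM and 6.26 FPKM against 3.63 FPKM. With equal FPKM totals BICD2 missed the rule (0.45 and 0.60).

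Over all 11282 genes 516 were higher (4.57%) and 330 were lower (2.93%) with both siRNAs. At a change of at least 1 there were 84 higher (0.745%) and 13 lower (0.115%). The siRNAs moved 7902 genes (70.0%) in the same direction, and 63 genes passed 0.5 in opposite directions, 23 of them higher with siDYN-1 (0.204%) and 40 higher with siDYN-2 (0.355%). Each siRNA alone gave more calls: 984 higher (8.72%) and 920 lower (8.15%) with siDYN-1, and 1756 higher (15.6%) and 1144 lower (10.1%) with siDYN-2. Of the genes called, 65 higher and 18 lower ones passed the 1 FPKM filter through their high side alone. BRK1 (0.50 and 0.82) and DYNC2H1 (-0.50 and -0.56) lay just inside the size rule, and PHC1 (-0.50 and -0.58) and ESRRA (0.50 and 0.68) just outside it. The split depended on scale: with equal FPKM totals, which moved the median of all genes by -0.08, 377 genes were higher and 590 lower.

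**Figure D1:**
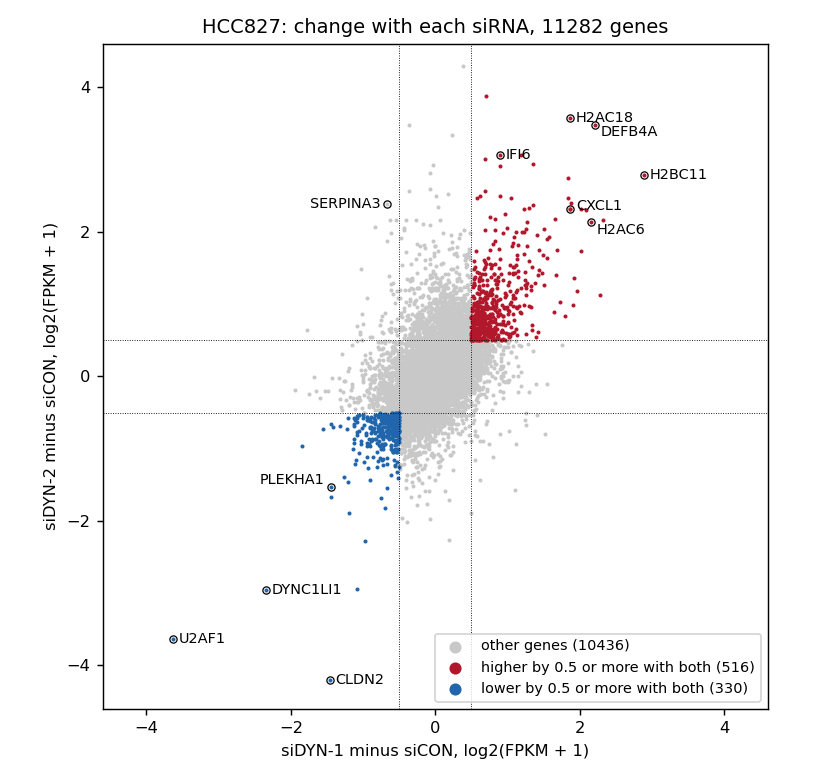
Change of each of 11282 genes in HCC827 with siDYN-1 (horizontal axis) and siDYN-2 (vertical axis) against siCON, on the log2(FPKM + 1) scale; dotted lines mark changes of 0.5. Red points are the 516 genes higher with both siRNAs and blue points the 330 lower with both, and DYNC1LI1 and U2AF1 lie far out in the lower left corner.

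In the test, 0 of 11282 genes passed an adjusted p under 0.05 (limma, Benjamini-Hochberg, two-sided; smallest adjusted p = 0.0822 for U2AF1), with 710 at an unadjusted p under 0.05, 452 of them higher and 258 lower. A model with the siRNA number as a term, which takes out the part of the disagreement of siDYN-1 and siDYN-2 that both lines share, passed 103 genes, 89 higher (0.789%) and 14 lower (0.124%). Of these 103, 101 also met the size rule. In both models the lone siCON library is assumed to vary like the siDYN libraries. The spread behind the p-values is the disagreement of siDYN-1 and siDYN-2 within the lines, and in the second model the part that the lines do not share. Differences between the siRNAs and technical variation between libraries cannot be told apart in it. "Passed with the siRNA term" below refers to that second model.

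Replication-dependent histone genes stood at the top of the higher genes. These genes supply the core and linker histones made in S phase, and their mRNAs normally end in a stem-loop in place of a poly(A) tail, so that their measured level depends on how RNA was selected for the library; the kit is given as Illumina TruSeq RNA, with no selection step named. Of the 15 tested members of the histone list 10 were higher and 0 were lower with both siRNAs, beside 4.57% and 2.93% over all tested genes. Their median change was 1.48, where all tested genes had medians of -0.03 with siDYN-1 and 0.02 with siDYN-2. Among all 64 histone genes of this kind in the table, 29 were tested and 16 were higher, 12 of which passed with the siRNA term. The higher genes comprised 10 of the cluster on chromosome 6 and 6 on chromosome 1.

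H2BC11, which encodes an H2B core histone (chr6:27125897-27132750, minus strand), had 11.28 FPKM with siDYN-1 and 10.51 FPKM with siDYN-2, against 0.66 FPKM with siCON. Its fitted change was 2.84 ± 0.33 (SE; limma, adjusted p = 0.491, and 0.00196 with the siRNA term). At less than 1 FPKM with siCON, it passed the filter through the siDYN libraries alone. H2AC6, an H2A gene, had 30.48 FPKM and 30.07 FPKM with siDYN and 6.09 FPKM with siCON, and the siDYN libraries nearly coincided. H2BC12 had 88.3 FPKM and 101.84 FPKM against 19.95 FPKM. H2AC18 on chromosome 1 differed more between the siRNAs, with 48.33 FPKM with siDYN-1 and 161.18 FPKM with siDYN-2, against 12.61 FPKM with siCON. The linker histone gene H1-2 had 34.92 FPKM and 50.9 FPKM against 11.62 FPKM. In each of these genes both siDYN libraries lay above siCON.

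Not every histone gene was higher. H2BC9 had 4.35 FPKM and 8.49 FPKM with siDYN and 12.12 FPKM with siCON, and H2AC20 had changes of -0.16 and -0.25. H4C12 was listed at 0 with siDYN-1 and with siCON and had 2.5 FPKM with siDYN-2. Histone genes have near-identical copies, so that the split of reads between single members is uncertain; H1-3, H1-4 and H1-5 were all below 1 FPKM. The 29 had medians of 1.06 with siDYN-1 and 1.40 with siDYN-2 in HCC827, and of 0.42 and 1.01 in NCI-H1975, where 14 of them were higher with both siRNAs and 0 were lower.

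The promoters of H2BC11 and H2BC12 are shown because these genes were among the leading ones and lie close to each other. The windows are 300 bases around the start of the gene (RefSeq, GRCh38.p14), at chr6:27132746-27133045 and chr6:27146809-27147108, both on the minus strand. Capitals mark the octamer ATTTGCAT, the binding motif of OCT1 that is known from H2B promoters, searched on both strands.
H2BC11: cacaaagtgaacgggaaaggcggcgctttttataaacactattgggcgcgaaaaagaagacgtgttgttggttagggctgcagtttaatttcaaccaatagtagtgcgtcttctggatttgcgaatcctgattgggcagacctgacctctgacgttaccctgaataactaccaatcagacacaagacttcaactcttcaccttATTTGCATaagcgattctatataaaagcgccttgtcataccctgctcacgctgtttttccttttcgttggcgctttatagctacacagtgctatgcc
H2BC12: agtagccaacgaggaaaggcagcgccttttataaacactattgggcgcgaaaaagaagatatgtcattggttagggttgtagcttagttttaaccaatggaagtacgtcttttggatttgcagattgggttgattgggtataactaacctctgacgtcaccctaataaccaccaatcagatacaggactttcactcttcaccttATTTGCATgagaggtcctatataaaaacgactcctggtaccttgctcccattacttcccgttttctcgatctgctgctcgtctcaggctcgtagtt
The octamer was in 9 of the 16 windows of higher histone genes (56.2%) and in 14 of 28 windows of all tested histone genes (50.0%). It was in 1.80% of 27305 windows, 1 per gene, and in 1.33% of the 9303 windows of tested genes. Over all higher genes, the histone genes included, it was in 15 of 405 windows (3.70%), and over all lower genes in 1 of 277 (0.361%). A match describes these letters only.

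**Figure D2:**
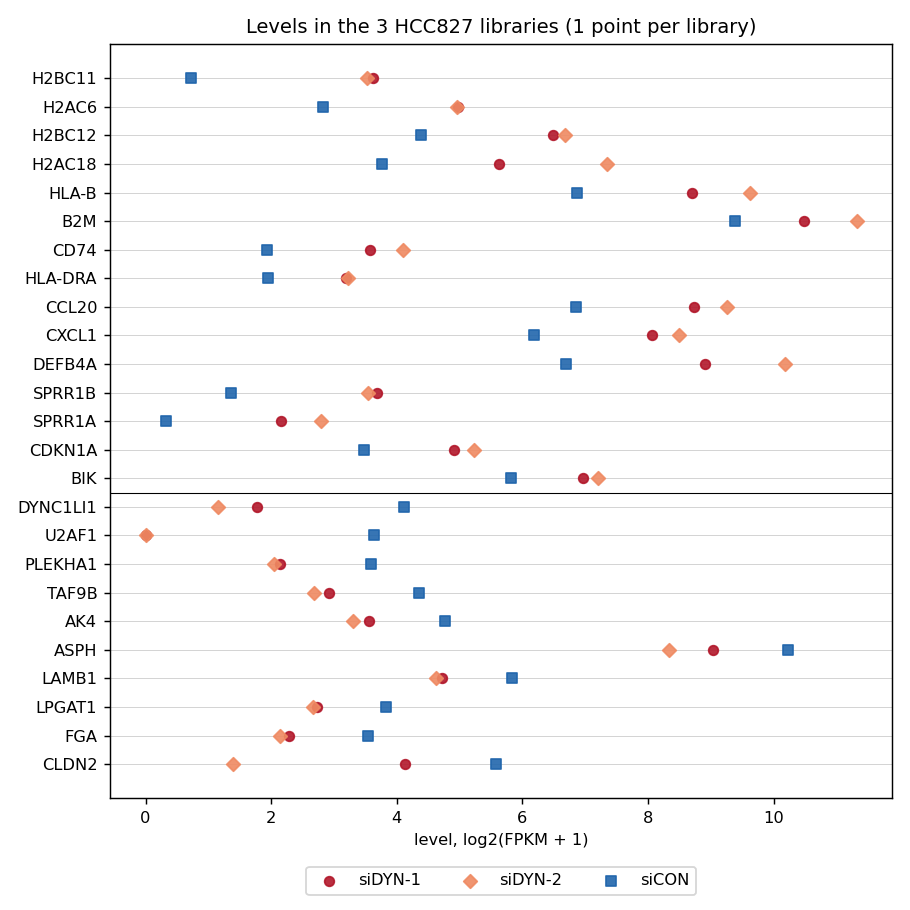
Level of 25 named genes in the HCC827 libraries as log2(FPKM + 1), 1 point per library: siDYN-1 (circle), siDYN-2 (diamond) and siCON (square). Above the line both siDYN points lie to the right of siCON, and below it both lie to the left; siDYN-1 and siDYN-2 nearly coincide for H2AC6 and HLA-DRA and lie apart for H2AC18 and CLDN2.

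Most tested genes of antigen presentation were higher. HLA class I molecules display peptides from inside the cell and need B2M as their light chain and TAP1 to load peptides; HLA class II molecules present peptides from endosomes and need CD74 as a chaperone. Of 20 tested members 12 were higher and 0 were lower with both siRNAs, beside 4.57% and 2.93% over all tested genes. The median change was 1.02, and 5 passed with the siRNA term. With equal FPKM totals, and likewise with the length and GC trends removed, 10 were higher and 0 lower. A median of 1.00 with siDYN-1 and 0.97 with siDYN-2 was measured for the same list in NCI-H1975, where 13 were higher and 0 lower.

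HLA-B had 415.53 FPKM with siDYN-1 and 786.53 FPKM with siDYN-2, against 116.15 FPKM with siCON (fitted change 2.29 ± 0.43, SE; limma, adjusted p = 0.684, and 0.0212 with the siRNA term). B2M had 1425.12 FPKM and 2565.49 FPKM against 670.82 FPKM, and HLA-E, a class I molecule read by natural killer cells, had 75.85 FPKM and 153.4 FPKM against 44.77 FPKM. The immunoproteasome subunit PSMB8 had 210.89 FPKM and 268.26 FPKM against 121.42 FPKM. For these genes siDYN-2 was the higher of the siRNAs in each case.

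The class II genes and CD74 were low. CD74 had 10.92 FPKM and 16.23 FPKM with siDYN and 2.8 FPKM with siCON (changes 1.65 and 2.18). HLA-DRA and HLA-DRB1 moved by similar amounts with both siRNAs. HLA-DRA had 8.15 FPKM and 8.37 FPKM against 2.88 FPKM, and HLA-DRB1 had 16.09 FPKM and 15.43 FPKM against 5.11 FPKM. Class II genes are best known from immune cells, whose marker PTPRC stayed at or below 0.17 FPKM in all 3 libraries. HLA genes are similar to each other, so that reads may be shared between them.

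Interferon-stimulated genes separated the siRNAs. This programme answers viral RNA and interferon, and some siRNAs are known to set it off. With siDYN-2 32 of the 35 tested members had a change of at least 0.5 and 0 of -0.5 or lower, with a median of 1.55, whereas with siDYN-1 2 were higher and 9 lower, with a median of -0.30. In consequence 2 members, IFI6 and IFI27, were higher with both, and 7 passed 0.5 in opposite directions. IFI6 had 421.32 FPKM with siDYN-1 and 1895.12 FPKM with siDYN-2, against 226.86 FPKM with siCON. The antiviral MX2 had 1.37 FPKM with siDYN-1 and 13.3 FPKM with siDYN-2, against 2.61 FPKM with siCON, so siCON lay between the siDYN libraries. In NCI-H1975 this list had positive medians with both siRNAs, 1.5 with siDYN-1 and 1.28 with siDYN-2, and 27 members were higher with both. The difference between the siRNAs within HCC827 has no replicate. Its part in the antigen presentation values, with list medians of 0.77 with siDYN-1 and 1.31 with siDYN-2, was not tested.

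A part of the NF-κB cytokine genes was also higher with both siRNAs. NF-κB is a transcription factor of inflammation, and its targets include chemokines that draw neutrophils and lymphocytes. Of 30 tested members 10 were higher and 0 were lower, beside 4.57% and 2.93% over all tested genes, and 4 passed with the siRNA term. The median was 0.66, but it was 0.23 with siDYN-1 and 0.94 with siDYN-2. With siDYN-1 11 members had a change of at least 0.5 and 2 of -0.5 or lower, and with siDYN-2 20 and 1. With the length and GC trends removed 6 were higher and the median was 0.44. CCL20, a chemokine for CCR6-bearing lymphocytes, had 425.39 FPKM and 613.7 FPKM with siDYN and 115.08 FPKM with siCON (2.14 ± 0.40, SE; limma, adjusted p = 0.684, and 0.00196 with the siRNA term). The neutrophil chemokine CXCL1 had 265.66 FPKM and 359.41 FPKM against 71.72 FPKM (2.09 ± 0.26; limma, adjusted p = 0.491, and 0.00500 with the siRNA term). CXCL8 (IL-8) had 175.44 FPKM with siDYN-1 and 659.24 FPKM with siDYN-2, against 118.2 FPKM with siCON, so most of its difference was in the siDYN-2 library. IL11, a cytokine of the IL-6 family, had 2.73 FPKM and 5.34 FPKM against 0.77 FPKM and passed the filter through the siDYN libraries alone. CXCL5 went both ways, with 924.22 FPKM with siDYN-1 and 372.92 FPKM with siDYN-2 against 629.82 FPKM with siCON.

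DEFB4A, an antimicrobial defensin of epithelia, had 479.46 FPKM with siDYN-1 and 1157.11 FPKM with siDYN-2, against 102.51 FPKM with siCON. Summed with its near-identical copy DEFB4B, the values were 480.78 FPKM and 1173.15 FPKM against 103.94 FPKM. The acute phase gene SAA1 had 439.09 FPKM and 608.03 FPKM with siDYN and 271.51 FPKM with siCON, and the readthrough annotation SAA2-SAA4 had 11.12 FPKM and 15.61 FPKM against 2.34 FPKM. Among 13 tested acute phase and complement genes 2, SAA1 and SOD2, were higher and 0 were lower. The shares over all tested genes were 4.57% higher and 2.93% lower. SERPINA3, a protease inhibitor of this list, was at 17.72 FPKM with siDYN-1 and 153.7 FPKM with siDYN-2, against 28.73 FPKM with siCON.

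The promoters of CXCL1, CCL20 and B2M are shown as examples from the inflammatory and antigen presentation groups. The windows are chr4:73869143-73869442, chr2:227813592-227813891 and chr15:44711267-44711566, all on the plus strand (RefSeq, GRCh38.p14). Capitals mark matches on either strand to GGGNNNTTCC, a form of the NF-κB motif; in CXCL1 matches on both strands overlap in 1 run.
CXCL1: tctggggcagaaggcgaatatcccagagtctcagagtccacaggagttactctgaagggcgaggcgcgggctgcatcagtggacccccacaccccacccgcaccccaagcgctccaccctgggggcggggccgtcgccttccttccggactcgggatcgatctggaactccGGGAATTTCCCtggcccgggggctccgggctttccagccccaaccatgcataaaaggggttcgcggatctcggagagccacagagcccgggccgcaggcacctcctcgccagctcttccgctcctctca
CCL20: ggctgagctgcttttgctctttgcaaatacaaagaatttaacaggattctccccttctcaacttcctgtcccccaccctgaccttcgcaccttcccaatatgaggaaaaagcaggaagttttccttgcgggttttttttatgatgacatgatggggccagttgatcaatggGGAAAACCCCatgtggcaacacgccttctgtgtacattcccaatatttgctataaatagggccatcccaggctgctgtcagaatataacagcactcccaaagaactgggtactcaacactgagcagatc
B2M: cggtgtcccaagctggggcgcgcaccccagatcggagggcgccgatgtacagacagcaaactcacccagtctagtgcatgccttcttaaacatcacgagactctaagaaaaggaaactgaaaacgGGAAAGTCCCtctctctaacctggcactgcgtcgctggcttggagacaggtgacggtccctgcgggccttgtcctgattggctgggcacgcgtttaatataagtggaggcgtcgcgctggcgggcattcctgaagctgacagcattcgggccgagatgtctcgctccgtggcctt
The motif was in 7.16% of 405 windows of higher genes, in 7.58% of 277 windows of lower genes, in 7.75% of 9303 windows of tested genes and in 6.47% of all 27305 windows.

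Genes of the squamous barrier, the cornified layer of skin and other stratified epithelia, were higher in part. Of 20 tested members 6 were higher and 0 were lower, beside 4.57% and 2.93% over all tested genes, and 4 passed with the siRNA term. With the length and GC trends removed 5 were higher and 2 lower. With siDYN-1 9 members had a change of at least 0.5 and 0 of -0.5 or lower, and with siDYN-2 11 and 4. SPRR1B, a precursor of the cornified envelope, had 11.91 FPKM and 10.61 FPKM with siDYN and 1.58 FPKM with siCON. Its relative SPRR1A had 3.48 FPKM and 5.92 FPKM against 0.25 FPKM, and it too passed the filter through the siDYN libraries alone. S100A2, a calcium-binding protein of basal epithelial cells, had 190.27 FPKM and 158.08 FPKM against 59.31 FPKM. S100A8 went both ways, with changes of 0.80 with siDYN-1 and -1.12 with siDYN-2.

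In the integrated stress response ATF4 switches on genes of amino acid supply and stress control, and a part of its target genes was higher. Of 34 tested ATF4 targets 10 were higher and 1, VEGFA, was lower with both siRNAs, beside 4.57% and 2.93% over all tested genes. Their median was 0.39. With the length and GC trends removed 6 were higher and 2 lower, with a median of 0.36. SLC7A5, another member, had changes of 0.66 with siDYN-1 and -0.9 with siDYN-2. DDIT3 (CHOP) had 29.12 FPKM and 41.88 FPKM with siDYN and 13.71 FPKM with siCON. TRIB3, a pseudokinase induced under stress, had 55.03 FPKM and 62.5 FPKM against 29.21 FPKM. PCK2, the mitochondrial PEP carboxykinase, had 10.99 FPKM and 14.71 FPKM against 5.25 FPKM. PPP1R15A, which directs the dephosphorylation of eIF2α, had 32.99 FPKM and 64.29 FPKM against 20.38 FPKM and was the 1 member that passed with the siRNA term (limma, adjusted p = 0.0315), though without the length and GC trends its siDYN-1 change no longer met the size rule. In the 20 tested genes of the endoplasmic reticulum's unfolded protein response 0 were higher and 0 were lower, and in 19 heat shock genes likewise 0 and 0. With shares of 4.57% and 2.93% over all tested genes, lists of this size can easily hold none. HSPB8, of the heat shock list, had changes of -0.63 with siDYN-1 and 2.16 with siDYN-2.

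Genes of cell cycle arrest and cell death held a few members that met the size rule. CDKN1A (p21), which blocks cyclin-dependent kinases, had 29.21 FPKM and 36.53 FPKM with siDYN and 10.17 FPKM with siCON (1.59 ± 0.29, SE; limma, adjusted p = 0.684, and 0.0224 with the siRNA term). It was 1 of 3 higher genes among 18 tested p53 targets, with AEN and BBC3, and 0 were lower. Over all tested genes the shares were 4.57% higher and 2.93% lower. With the length and GC trends removed 2 of the p53 targets were higher. BBC3 had changes of 0.62 with siDYN-1 and 2.5 with siDYN-2. BIK, a pro-apoptotic relative of BCL2, had 123.35 FPKM and 146.13 FPKM with siDYN and 55.62 FPKM with siCON. XIAP, an inhibitor of caspases, was the 1 lower gene of the 24 tested apoptosis genes, of which 4 were higher, with 6.7 FPKM and 6.85 FPKM against 11.16 FPKM. BTG2, a p53 target that restrains growth, had 5.89 FPKM with siDYN-1 and 0.79 FPKM with siDYN-2, against 1.6 FPKM with siCON.

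Autophagy genes, to which the title of the series points, mostly did not reach the size rule, like the tested genes at large. Of 34 tested genes of the autophagosome machinery 3 were higher and 0 were lower, beside 4.57% higher and 2.93% lower over all tested genes, with a median of 0.01, and 0 passed with the siRNA term. BECN1, a subunit of the lipid kinase that starts autophagosomes, had 46.3 FPKM and 48.41 FPKM with siDYN and 29.97 FPKM with siCON. WIPI1, which binds the lipid this kinase makes, had 2.1 FPKM and 1.87 FPKM against 0.62 FPKM and passed the filter through the siDYN libraries alone. The third was MAP1LC3B2, a near-identical copy of the LC3B gene that may share its reads, and its call was lost with the length and GC trends removed (0.24 and 1.01). Among 16 tested autophagy receptors SQSTM1 (p62), which ties ubiquitinated cargo to LC3, had 244.99 FPKM and 289.78 FPKM with siDYN and 138.85 FPKM with siCON. The mitophagy receptors BNIP3L (18.83 FPKM and 18.59 FPKM against 32.29 FPKM) and BNIP3 (219.59 FPKM and 181.09 FPKM against 364.75 FPKM) were the 2 lower ones.

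Of 37 lysosome genes 2 were higher and 0 were lower, where 4.57% of all tested genes were higher and 2.93% lower. CTSB, cathepsin B, was among them, with 71.04 FPKM with siDYN-1 and 118.58 FPKM with siDYN-2, against 48.96 FPKM with siCON; with equal FPKM totals its siDYN-1 change was 0.42, short of the rule, and the list had 1 higher and 1 lower gene. Among 28 regulators of mTORC1 and AMPK, the nutrient-sensing kinases upstream of autophagy, 2 were higher (SESN2 and STK11) and 0 were lower, but with equal FPKM totals, and likewise with the length and GC trends removed, neither was called and 0 were higher and 2 lower.

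**Figure D3:**
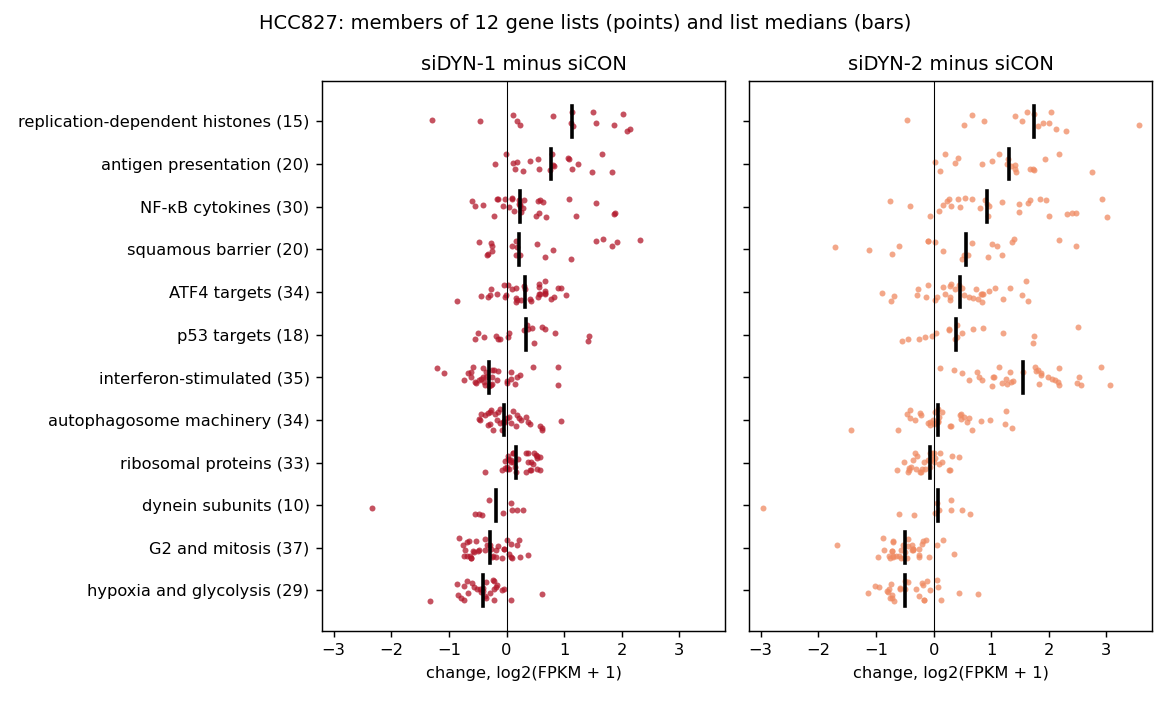
Change of each tested member of 12 gene lists in HCC827 (points, 1 per gene; vertical position within a list is random) with siDYN-1 (left) and siDYN-2 (right) against siCON, on the log2(FPKM + 1) scale; black bars are list medians and the number of tested members stands in brackets. Interferon-stimulated genes lie mostly below 0 with siDYN-1 (median -0.30) and above 0 with siDYN-2 (median 1.55), while histone and antigen presentation genes lie mostly above 0 with both.

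A part of the mitotic genes was lower. Of 37 tested genes of G2 and mitosis 0 were higher and 11 were lower with both siRNAs, beside 4.57% and 2.93% over all tested genes. Of the 37, 29 were below siCON with both, and the median was -0.37. ANLN, a scaffold of the cytokinetic ring, had 60.51 FPKM and 31.28 FPKM with siDYN and 102.21 FPKM with siCON and was the 1 member that passed with the siRNA term (limma, adjusted p = 0.0269). CENPF, a kinetochore protein that also binds dynein regulators, had 4.14 FPKM and 3.96 FPKM against 8.06 FPKM. KIF20A, a kinesin of cytokinesis, had 17.04 FPKM and 15.33 FPKM against 28.74 FPKM, and TOP2A, the topoisomerase of dividing cells, had 63.84 FPKM and 57.37 FPKM against 97.81 FPKM. In bulk RNA, fewer dividing cells and less of these mRNAs per cell cannot be told apart. With the trends on transcript length and GC content removed, 4 of the 37 met the size rule and the median was -0.34. In NCI-H1975 16 of the same genes were lower and 0 higher with both siRNAs.

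In the G1/S list, CCND1 (cyclin D1) was lower, with 73.33 FPKM and 73.27 FPKM with siDYN and 135.43 FPKM with siCON. CCNE1 (cyclin E1) had changes of 1.03 and 0.50 and E2F1, a transcription factor of S phase genes, of 1.11 and 0.66. Of the 32 tested members 1 was higher and 2 were lower, beside 4.57% higher and 2.93% lower over all tested genes. CCNE1 missed the rule before rounding.

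Some hypoxia and glycolysis genes were lower as well. HIF transcription factors drive these genes when oxygen is low. Of 29 tested members 8 were lower and 1, PFKL, was higher with both siRNAs, beside 2.93% lower and 4.57% higher over all tested genes. Of the 29, 24 were below siCON with both, and the median was -0.40. LDHA, lactate dehydrogenase A, had 1138.57 FPKM and 827.74 FPKM with siDYN and 1811.43 FPKM with siCON. VEGFA, the vascular growth factor, had 29.98 FPKM and 32.69 FPKM against 55.27 FPKM, and PFKFB3, which sets the pace of glycolysis, had 57.09 FPKM and 58.85 FPKM against 99.44 FPKM. In NCI-H1975 this list had medians of -0.17 with siDYN-1 and -0.10 with siDYN-2, with 2 members higher and 1 lower. PFKFB3 there had 16.2 FPKM and 14.33 FPKM with siDYN and 15.99 FPKM with siCON. The difference between the lines passed for 0 of the 11282 genes with limma.

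U2AF1, a splicing factor that reads the end of introns, had the lowest fitted change. It was at 0.01 FPKM with siDYN-1 and listed at 0 with siDYN-2, against 11.5 FPKM with siCON, but it has a near-identical copy, U2AF1L5, between which reads can be split. The sum of both was 165.35 FPKM and 205.55 FPKM with siDYN and 157.81 FPKM with siCON, so the sum was not lower. In NCI-H1975 U2AF1 itself had 155.27 FPKM and 185.13 FPKM with siDYN and 128.53 FPKM with siCON. A change of the gene itself is uncertain.

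Of the other lower genes, 11 besides DYNC1LI1 and U2AF1 had changes of at least 1 in size with both siRNAs. PLEKHA1, a phosphoinositide-binding adaptor, had 3.39 FPKM and 3.15 FPKM with siDYN and 11.01 FPKM with siCON (-1.49 ± 0.21, SE; limma, adjusted p = 0.651, and 0.0155 with the siRNA term). TAF9B, a subunit of transcription coactivator complexes, had 6.54 FPKM and 5.44 FPKM against 19.46 FPKM. AK4, a mitochondrial adenylate kinase, had 10.79 FPKM and 8.92 FPKM against 26.24 FPKM, and LPGAT1, a lysophospholipid acyltransferase, had 5.61 FPKM and 5.34 FPKM against 13.15 FPKM. In these genes the siDYN libraries lay close to each other.

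ASPH, an aspartyl hydroxylase of the endoplasmic reticulum and the most abundant of these genes, had 525.31 FPKM with siDYN-1 and 321.43 FPKM with siDYN-2, against 1196.29 FPKM with siCON. The fibrinogen chain FGA had 3.85 FPKM and 3.41 FPKM against 10.59 FPKM. CLDN2, a pore-forming claudin of tight junctions, differed between the siRNAs, at 16.44 FPKM with siDYN-1 and 1.62 FPKM with siDYN-2, against 47.09 FPKM with siCON, as did the chitinase gene CHIA (6.28 FPKM and 1.01 FPKM against 14.46 FPKM). GET1-SH3BGR, a readthrough annotation, was listed at 0 in both siDYN libraries and had 1.09 FPKM with siCON.

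Genes of cell adhesion and matrix went both ways: of 25 tested integrin, laminin and matrix genes 3 were higher and 5 lower. LAMB1, a laminin chain of basement membranes, had 25.36 FPKM and 23.58 FPKM with siDYN and 55.83 FPKM with siCON. ITGB1, the integrin chain shared by most matrix receptors, had 200.6 FPKM and 285.75 FPKM against 434.17 FPKM. CDH1, E-cadherin, had 58.07 FPKM and 71.04 FPKM against 117.91 FPKM. RAB6A, a Golgi GTPase whose vesicles dynein carries, had 19.87 FPKM and 19.19 FPKM against 38.22 FPKM. It was the 1 lower gene of 36 in the RAB, endosome and Golgi list, and COPE was the 1 higher gene. Over all tested genes 2.93% were lower and 4.57% higher. SCD, the stearoyl-CoA desaturase, had 46.98 FPKM and 32.49 FPKM against 89.22 FPKM. No ribosomal protein gene met the size rule (0 higher and 0 lower of 33), and in 34 respiratory chain genes 1 was higher and 0 lower. Among the feedback genes of EGFR and MAPK signalling 2 were higher and 2 lower of 21; ERRFI1, an inhibitor of EGFR, had 38.82 FPKM and 69.2 FPKM against 115.51 FPKM.

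The cells matched their label in epithelial markers. EPCAM ran from 241.21 to 313.85 FPKM, and KRT7, KRT8, KRT18 and KRT19 were at or above 1036.32 FPKM in each library. CDH1, the remaining marker of this set, was lower, with 58.07 FPKM and 71.04 FPKM with siDYN against 117.91 FPKM with siCON. The lung lineage markers went different ways. NKX2-1, the lung lineage factor, had 13.44 FPKM and 9.77 FPKM with siDYN and 22.88 FPKM with siCON. The surfactant gene SFTPB stayed at or below 1.33 FPKM. NAPSA had 186.97 FPKM and 205.36 FPKM with siDYN and 173.22 FPKM with siCON, and FOXA2 had 2.03 FPKM and 3.94 FPKM against 2.27 FPKM. Of 13 markers of leukocytes, endothelium, fibroblasts and blood in the table, 12 were below 1 FPKM throughout, COL3A1 was listed at 0, and the highest was CD14 at 1.92 FPKM. Their sums were 2.71 FPKM and 3.79 FPKM with siDYN and 3.86 FPKM with siCON.

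NCI-H1975 was set beside HCC827 to see which changes the lines shared. In the same 11282 genes 850 were higher (7.53%) and 1037 lower (9.19%) with both siRNAs there. Of the 516 genes higher in HCC827, 247 (47.9%) were higher in NCI-H1975 too, which is 29.1% of its list, and 0 were lower. Of the 330 lower genes 175 (53%) were lower there, 16.9% of its list, and 4 were higher. These were ANGPTL4, ANKRD37, GET1-SH3BGR and RGS2, named after their values were seen. The lines do not share a control library, though they share the siRNAs. Of the genes called in HCC827, 43 of the higher and 27 of the lower ones were below 1 FPKM in all NCI-H1975 libraries, among them CLDN2 and FGA.

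In the test of the difference between the lines 0 genes passed (limma interaction, smallest adjusted p = 0.307, for U2AF1; 133 at an unadjusted p under 0.05), and with the siRNA term ANGPTL4 and U2AF1 did. ANGPTL4, a secreted inhibitor of lipoprotein lipase, had 13.83 FPKM and 22.1 FPKM with siDYN and 33.2 FPKM with siCON in HCC827, and 12.3 FPKM and 24.9 FPKM with siDYN and 4.47 FPKM with siCON in NCI-H1975. Its changes were -1.21 and -0.57 in HCC827, against 1.28 and 2.24 in NCI-H1975. CEP112, a centrosomal protein, had 9.33 FPKM and 9.85 FPKM with siDYN and 2.22 FPKM with siCON in HCC827, while in NCI-H1975 it was at 0.49 FPKM and 0.47 FPKM with siDYN and 0.64 FPKM with siCON. CKMT1A, a mitochondrial creatine kinase with a near-identical copy, was higher in both lines, with changes of 1.27 and 1.29 in HCC827 and 2.97 and 2.81 in NCI-H1975.

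**Figure D4:**
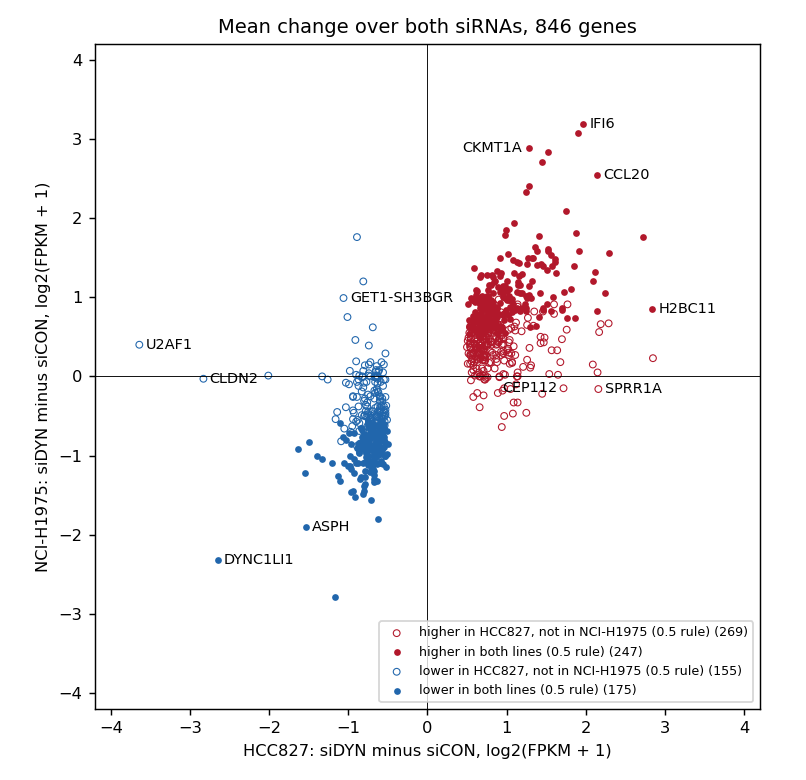
Mean change over both siRNAs in HCC827 (horizontal axis) and NCI-H1975 (vertical axis), siDYN minus siCON on the log2(FPKM + 1) scale, for the 846 genes higher (red) or lower (blue) with both siRNAs in HCC827. Filled points met the size rule in the same direction in both lines (247 higher and 175 lower); U2AF1, CLDN2 and SPRR1A were far from 0 in HCC827 and close to it in NCI-H1975.

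Higher genes had shorter transcripts than lower genes. The median longest transcript was 2071 bases with 58.4% GC for the higher genes and 4575 bases with 42.0% GC for the lower genes, where all tested genes had 3266 bases and 48.9% GC. Across 10 equal groups of genes ordered by length, the median change ran from 0.25 with each siRNA in the shortest group to -0.22 with siDYN-1 and -0.17 with siDYN-2 in the longest. The shortest group held 152 higher and 6 lower genes, and the longest 12 higher and 65 lower. NCI-H1975 showed the same order, from 0.27 and 0.39 in the shortest group to -0.25 and -0.32 in the longest. Once this trend and that on GC content were removed, 303 genes were higher and 265 lower, of which 248 and 148 were the same genes as before. The median was then 1.08 for the histone list, 0.76 for antigen presentation and -0.48 for hypoxia and glycolysis. Besides those given above, IFI27, SAA1, TAP1, BBC3, E2F1 and PFKL were no longer called higher, and XIAP, ITGB1, TOP2A and DYNC2H1 were no longer called lower. With equal FPKM totals the calls of CXCL8 and TAP1 were lost, and BRK1, at the edge of the rule, was lost with both. What the trend reflects was not tested.

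**Figure D5:**
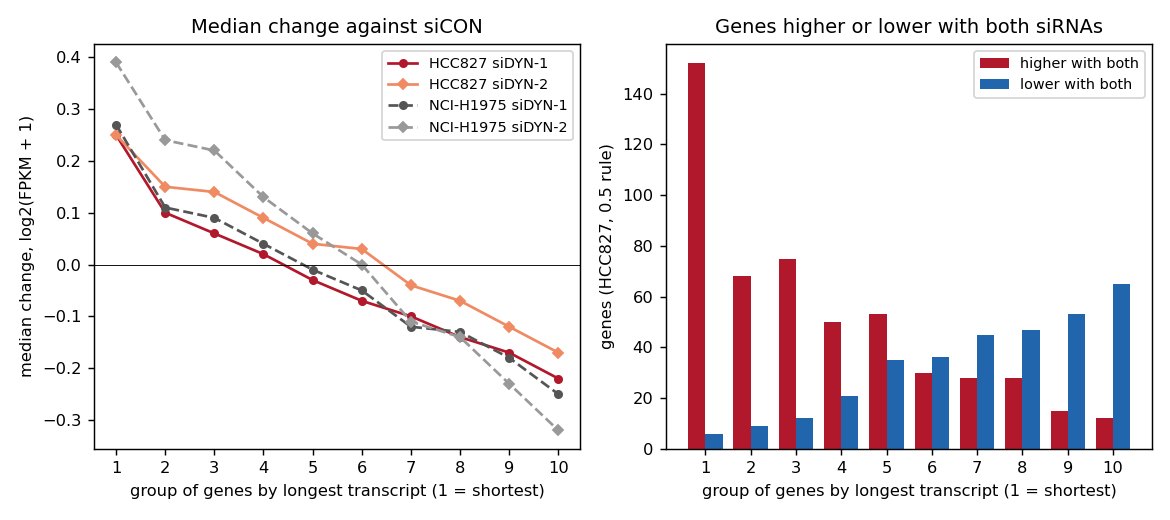
Left, median change against siCON (log2(FPKM + 1)) in 10 equal groups of tested genes ordered by longest transcript, for siDYN-1 and siDYN-2 in HCC827 (solid lines) and NCI-H1975 (dashed lines); right, number of genes higher (red) or lower (blue) with both siRNAs in HCC827 in each group. The medians fall with length in all 4 comparisons, and the shortest group holds 152 higher and 6 lower genes.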

How the data were processed

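RNA from HCC827 and NCI-H1975 cells was extracted with Trizol and sequenced from Illumina TruSeq RNA libraries, as the labels' protocols say. For the siRNA experiment the authors deposited FPKM per gene, rounded to 2 decimals, per the file headers. The submitters' processing notes list Bowtie 0.12.2, the mouse build mm8 and GRCh38.p12 without their roles. How FPKM was computed, on which annotation and whether by strand is not stated in those notes. Of 17462 lines 20 held no complete gene and were left out, and 0 columns of per-sample values were unmatched. Read totals are unknown, so values carry no counting interval; FPKM totals in HCC827 were 653588 with siDYN-1, 633846 with siDYN-2 and 605451 with siCON, and 2183, 1570 and 2204 genes were listed at 0.

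Genes with at least 1 FPKM in 1 or more HCC827 libraries were tested on log2(FPKM + 1) with limma 3.58.1 in R 4.3.3 (trend in the prior variance, two-sided, Benjamini-Hochberg over all genes, threshold 0.05), in 1 fit of all 6 siRNA libraries with line, knockdown and their interaction (2 residual degrees of freedom). The procedure was tested on simulated data. The same siRNAs, by label number, were used in both lines, so a second fit took the siRNA number as a replicate block (1 residual degree of freedom); across genes, the siDYN-2 minus siDYN-1 difference of the lines had a correlation of 0.474, over 11282 genes that share libraries and are not independent. Named genes were the dynein subunits, the 12 genes per direction with the largest smaller change over the siRNAs, up to 4 leading members and any opposite movers of each of 40 gene lists, the 5 leading genes each way in the test between lines, the 5 each way with the largest disagreement of the siRNAs, and genes at the thresholds; further members of lists were named after their values were seen. Results for a few genes are not reported here. The lists, the members and the tests were chosen with earlier results of these data known. Coordinates, length and GC content are from GENCODE 29 on GRCh38 (17214 genes matched by ID), and promoters from RefSeq (GRCh38.p14). The alternatives, including removal of the trend on transcript length and GC content (loess, span 0.5), which was added after seeing the data, are given in the closing section.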

Additional observations from a re-analysis of the deposited data

Results flagged for a closer look

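For 17 named genes both siRNAs moved one way in HCC827 and the opposite way in NCI-H1975, where every library counts, however small its change. With limma the difference between the lines passed for none of them (0 of 11282 genes; 133 at an unadjusted p under 0.05), and with the siRNA term for ANGPTL4 and U2AF1. The differences below are HCC827 minus NCI-H1975, each of the mean change over both siRNAs on the log2(FPKM + 1) scale.

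Higher in HCC827 were SPRR1A, the cornified envelope precursor (difference 2.31), CEP112 (1.87), the dual-specificity phosphatase DUSP5 (1.13), cathepsin B gene CTSB (1.10), the AP-1 subunit FOSL1 (1.00), IER5 (0.72), the epithelial transcription factor ELF3 (0.69) and TWIST2 (0.34). SPRR1A, CEP112 and TWIST2 were below 1 FPKM in every NCI-H1975 library. CTSB had 71.04 FPKM and 118.58 FPKM with siDYN and 48.96 FPKM with siCON in HCC827, and 85.08 FPKM and 102.77 FPKM with siDYN and 108.01 FPKM with siCON in NCI-H1975.

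Lower in HCC827 were U2AF1 (-4.03), ANGPTL4 (-2.65), GET1-SH3BGR (-2.05), ANKRD37 (-1.76), DDIT4, an inhibitor of mTORC1 (-1.59), the histone genes H2AC20 (-1.33) and H2BC9 (-1.33), RGS2 (-1.31) and the keratin gene KRT7 (-0.69). U2AF1 has a near-identical copy and GET1-SH3BGR is a readthrough annotation. DDIT4 had 405.74 FPKM and 344.17 FPKM with siDYN and 554.95 FPKM with siCON in HCC827, and 107.95 FPKM and 132.25 FPKM with siDYN and 58.47 FPKM with siCON in NCI-H1975.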

How the results depend on the processing

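The count of 0 genes past limma became 1 with a pseudocount of 0.1 and 1 with the length and GC trend removed (U2AF1 in both), and 103 with the siRNA number as a replicate block, where the adjusted p of DYNC1LI1 was 8.52e-04 at the same change of -2.65. The DYNC1LI1 change ran from -3.17 to -2.34 over 13 alternatives. The count of 0 for the difference between lines became 1 with a pseudocount of 0.1 and 2 with the replicate block. The 516 higher genes were 303 with the trend removed and 984 to 1756 when 1 siRNA was left out. The 330 lower genes were 614 with a pseudocount of 0.1, 207 with a mean of at least 5 FPKM, 590 with equal FPKM totals and 920 to 1144 when 1 siRNA was left out. At a change of 1, the 84 higher genes were 176 with a pseudocount of 0.1, 53 with the trend removed and 149 to 465 with 1 siRNA left out, and the 13 lower genes were 36 with a pseudocount of 0.1, 21 with equal totals and 88 to 142 with 1 siRNA left out. With 1 siRNA left out the rule asks for 1 change and not for both. For the rest the cause was not tested. None of the named genes called higher or lower changed sign under any alternative run. Depth is unknown, so low genes carry an error that could not be given.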
